A study of Mus musculus with 62 samples.

Results

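The periaqueductal gray is the column of neurons and glia around the aqueduct of the midbrain. The comparison set its 4 libraries labelled cHet against those of hypothalamus, caudate putamen and substantia nigra, 4 cHet libraries each, so 16 of the 62 samples of the series were used and 4 of the 62 are periaqueductal gray of this genotype. The members were chosen by tissue and genotype labels alone. All 16 libraries came from mice on a BL6 background at postnatal day 21. They share the genotype cHet, which the labels do not spell out further, in a series made to study mice that lack Nova1, an RNA-binding protein of neurons, in inhibitory neurons only (cKO). No wild-type tissue of these regions was used here, so the values describe cHet mice. The labels do not say whether the 4 libraries of a region came from separate animals or how far a dissection reached, and p-values therefore measure the spread between these libraries, which may be technical.

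The periaqueductal gray coordinates defensive behaviour, pain modulation, vocalisation and autonomic responses. Most of its neurons release glutamate or GABA, and its ventral part holds the dorsal raphe nucleus, a major source of serotonin for the forebrain, with some dopamine neurons beside it. It is rich in opioid and other peptide receptors. Above it lie the superior and inferior colliculi, and below it lie the motor nuclei of the eye muscles.

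Polyadenylated RNA was sequenced, and each library gave 15.4 to 24.3 megatags (tags are reads assigned to genes, median 20.5 megatags), with 15.4 to 21.8 megatags in the periaqueductal gray libraries. Levels are given as CPM (tags of a gene per megatag of the library) after scaling between libraries, as means of 4 libraries ± SD, and levels of different genes are compared only per length, as tags per kilobase of exon scaled to depth (RPKM). Across tested genes, Pearson correlations of log2 levels were 0.988 to 0.991 between periaqueductal gray libraries. They were 0.964 to 0.972 between periaqueductal gray and hypothalamus libraries, 0.941 to 0.954 with substantia nigra and 0.919 to 0.928 with caudate putamen. Genes are not independent replicates, and these values describe the libraries only.

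Of 23038 listed genes, 15660 passed the filter on low counts and were tested. With edgeR's quasi-likelihood test and a Benjamini-Hochberg adjusted p under 0.05, 3899 genes (24.9%) were higher and 3617 genes (23.1%) lower in periaqueductal gray than the mean of the 3 other regions, taken on the log2 scale. At least a 2-fold difference was found for 649 of the higher genes (4.14% of those tested) and 554 of the lower ones (3.54%). Because a difference from a mean can rest on 1 region, genes were also tested against each region. Periaqueductal gray was higher for 2088 genes (13.3%) and lower for 2256 genes (14.4%) than hypothalamus, higher for 4797 (30.6%) and lower for 4831 (30.8%) than caudate putamen, and higher for 5063 (32.3%) and lower for 4415 (28.2%) than substantia nigra. These 3 comparisons share the periaqueductal gray libraries. Genes are called highest here when the largest of the 3 pairwise p-values, adjusted over all genes, was under 0.05 with all 3 differences above 0, and lowest when all 3 were below 0. By that rule 320 genes (2.04%) were highest and 135 (0.862%) lowest in periaqueductal gray. The shares in this paragraph are the background for every list count below. The median log2 difference over all tested genes was -0.0023. In bulk tissue, fewer cells of a type and less RNA per cell cannot be told apart.

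The genes of serotonin neurons stood at the top of the list. Of 12 members of a serotonergic list, all of them tested, 11 were higher and none lower in periaqueductal gray than the mean, and 5 were highest: Slc6a4, Tph2, Fev, Gchfr and Htr1a. The median log2 difference of the list was 2.14, or 1.78 with genes at 0 in a region set at a floor of 3 tags over that region's libraries, against -0.0023 over all tested genes. Serotonin is made from tryptophan by the brain's tryptophan hydroxylase Tph2 and then by Ddc, packed into vesicles by Slc18a2 and taken back up by Slc6a4. In the mouse the transcription factors Gata2, Gata3, Lmx1b and Fev set up and keep this program. The 250 bases before the annotated start are shown for 3 of the 5 highest genes (RefSeq, GRCm38.p6, strand as stated). Capitals mark matches to a GATA motif or to TAATTA. The 3 shown are those with a GATA match.
Tph2, chr10:115185023-115185272, minus strand: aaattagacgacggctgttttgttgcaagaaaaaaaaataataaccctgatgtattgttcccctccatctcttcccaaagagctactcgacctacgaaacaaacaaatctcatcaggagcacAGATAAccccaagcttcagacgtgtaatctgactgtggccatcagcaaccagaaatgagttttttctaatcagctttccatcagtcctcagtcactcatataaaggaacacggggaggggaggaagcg
Slc6a4, chr11:76998347-76998596, plus strand: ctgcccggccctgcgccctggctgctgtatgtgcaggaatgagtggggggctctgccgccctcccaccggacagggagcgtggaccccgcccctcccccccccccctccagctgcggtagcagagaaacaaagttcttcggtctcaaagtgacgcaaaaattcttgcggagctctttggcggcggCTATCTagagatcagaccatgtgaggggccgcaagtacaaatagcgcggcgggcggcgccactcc
Fev, chr1:74885409-74885658, minus strand: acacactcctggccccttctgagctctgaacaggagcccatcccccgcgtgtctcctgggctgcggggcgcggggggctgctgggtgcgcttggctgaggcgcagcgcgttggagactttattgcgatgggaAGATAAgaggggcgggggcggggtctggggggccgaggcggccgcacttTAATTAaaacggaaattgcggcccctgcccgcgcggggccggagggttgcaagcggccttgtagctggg
The GATA motif was searched on both strands as GATA with A or T before it and A or G after it. The core TAATTA, which many homeodomain proteins bind, reads the same on both strands. Each of the 3 windows held 1 GATA match, which in Slc6a4 is AGATAG on the opposite strand and so appears as CTATCT. The Fev window also held 1 TAATTA match. The windows of Htr1a and Gchfr, the other 2 highest genes of the list, held neither motif. A GATA match was present in 26.5% of all 32851 RefSeq windows of this length, and TAATTA in 4.84%. The ETS core CCGGAA, the kind of site that Fev binds, was in none of the 5 windows and in 12% of all windows. The matches are a description of letters.

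Slc6a4, the serotonin transporter, had 257, 267, 126 and 182 CPM in the 4 periaqueductal gray libraries, against means of 0.158 CPM in hypothalamus, 0.0273 CPM in caudate putamen and 0.493 CPM in substantia nigra. Its mean of 208 ± 66.4 CPM (SD, n = 4) was 422-fold that of the next highest region, substantia nigra (edgeR, adjusted p = 1.78e-15 for being highest). Tph2 had 262, 276, 114 and 208 CPM in periaqueductal gray, against means of 0.257 CPM in hypothalamus, 1.63 CPM in caudate putamen and 1.65 CPM in substantia nigra. The groups did not overlap for either gene, which was a condition of the rule that named them. Replicate 3 was the lowest periaqueductal gray library for both. Tph2 was higher than the mean by 7.90 ± 0.19 on the log2 scale (SE; edgeR, adjusted p = 2.04e-14 for being highest), and per length the 2 transcripts were near each other, at 82.3 RPKM for Tph2 and 76 RPKM for Slc6a4.

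Fev, the transcription factor also called Pet1, had 3.33, 3.22, 2.45 and 1.74 CPM in periaqueductal gray. It was at 0 tags in hypothalamus and caudate putamen and averaged 0.0255 CPM in substantia nigra (edgeR, adjusted p = 1.89e-06 for being highest). Gchfr, which regulates the enzyme that makes the tetrahydrobiopterin cofactor of Tph2, had 10.1, 5.74, 3.52 and 7.23 CPM in periaqueductal gray, 33.8-fold its level in hypothalamus, the next highest region. Both genes were thus found almost only in periaqueductal gray libraries at this depth, at low levels. Htr1a, an inhibitory serotonin receptor that is also the autoreceptor of raphe neurons, differed less: 19.8, 21.6, 25.4 and 20 CPM in periaqueductal gray, against means of 13.8 CPM in hypothalamus, 5.33 CPM in caudate putamen and 2.32 CPM in substantia nigra (1.57-fold over hypothalamus; edgeR, adjusted p = 0.00486 for being highest).

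The other members of the list are shared with dopamine neurons or with other midbrain cells, and their order among regions differed. Slc18a2 had 118, 134, 73.5 and 95.6 CPM in periaqueductal gray, above the means of hypothalamus (51.3 CPM) and caudate putamen (8.2 CPM) but below that of substantia nigra (480 CPM). Ddc followed the same order, with 190, 197, 108 and 159 CPM in periaqueductal gray and a mean of 731 CPM in substantia nigra. Relative to substantia nigra both were lower, at -2.19 ± 0.14 and -2.16 ± 0.12 on the log2 scale (SE). Their call as higher than the mean therefore rests on the low levels in caudate putamen, and without caudate putamen in the mean both turned to lower. Gata3 was at 22.3, 25.9, 24.6 and 24.5 CPM in periaqueductal gray and a mean of 23.2 CPM in substantia nigra, 2 levels that did not differ beyond their spread (0.07 ± 0.15 log2, edgeR adjusted p = 0.718), against means of 0.442 CPM in hypothalamus and 0.0273 CPM in caudate putamen. Slc22a3, a low-affinity monoamine transporter, did not pass the test.

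Replicate 3 had the least of Tph2, Slc6a4, Gchfr, Slc18a2, Ddc and Slc17a8 among the 4 periaqueductal gray libraries. Without it 11 members of the serotonergic list were called higher, as many as without any other single library. In the cKO libraries of the same regions, which the comparison did not use, 9 of 12 members were higher and 4 highest. There Tph2 averaged 141 ± 120 CPM (SD, n = 4) and Slc6a4 139 ± 124 CPM in periaqueductal gray, a wider spread between libraries than in cHet.

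**Figure D1:**
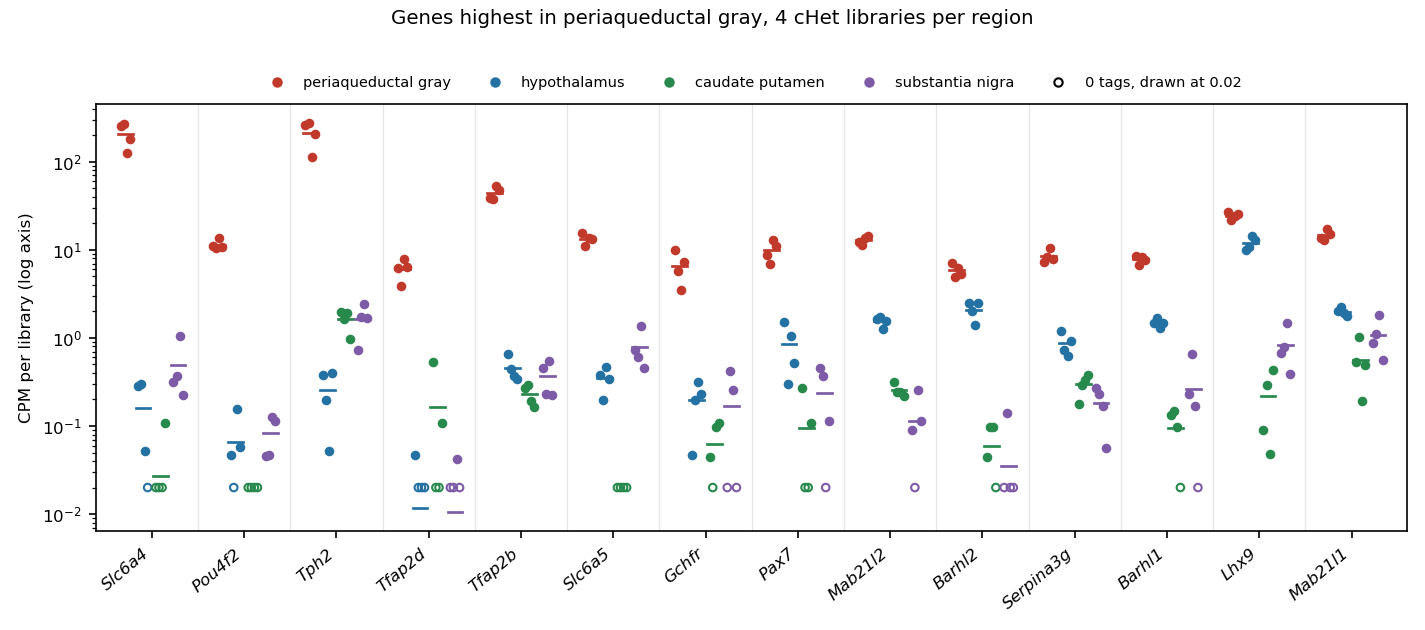
Level of 14 genes called highest in periaqueductal gray, in each of 16 cHet libraries (points; CPM on a log axis), with a bar at each region's mean and open points for 0 tags. All 4 periaqueductal gray points lie above the 12 others for every gene shown, because the rule chose genes by this (3.83% of all tested genes have it). The margin is widest for Slc6a4 (208 CPM against at most a 0.493 CPM region mean).

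Transcription factors that pattern the midbrain were mostly higher. Of 35 listed factors, all tested, 31 were higher and 1 (Meis2) lower than the mean, and 11 were highest, at a median log2 difference of 2.86 (2.71 with the floor). Of the same list 26 were higher than in hypothalamus and 34 higher than in caudate putamen, while against substantia nigra, the other midbrain region, 16 were higher and 11 lower. As background, Pax3 and Pax7 mark the dorsal neural tube, and in the mouse Pax7, Tfap2b, Tfap2d, Pou4f2 and Barhl2 are known from the developing or adult colliculi and neighbouring dorsal midbrain. The labels do not say where the dissection ended dorsally, and the part that neighbouring tissue has in these levels was not tested.

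Tfap2b, an AP-2 factor, had 39.3, 37.6, 52.5 and 47.3 CPM in periaqueductal gray, against means of 0.454 CPM in hypothalamus, 0.23 CPM in caudate putamen and 0.366 CPM in substantia nigra. It was higher than the mean by 6.98 ± 0.13 on the log2 scale (SE; edgeR, adjusted p = 8.92e-17 for being highest). Its relative Tfap2d had 6.28, 3.91, 7.86 and 6.31 CPM in periaqueductal gray, 37.5-fold its level in caudate putamen, the next highest region. For both AP-2 genes the lowest periaqueductal gray library lay far above every other library, though lack of overlap was a condition of the rule that named them. Pou4f2, a POU factor best known from retinal ganglion cells, had 11, 10.5, 13.8 and 10.7 CPM in periaqueductal gray and was at 0 tags in caudate putamen, with 139-fold more in periaqueductal gray than in substantia nigra. Pax7 had 8.83, 6.87, 12.8 and 11.1 CPM in periaqueductal gray, against a highest other mean of 0.844 CPM in hypothalamus (11.7-fold). Pax3 averaged 3.79 ± 1.07 CPM in periaqueductal gray and was 31.8-fold its level in substantia nigra. Replicate 3 was the highest of the 4 for Tfap2b, Tfap2d, Pou4f2 and Pax7, and the lowest for Tph2 and Slc6a4.

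The remaining lead factors were shared with hypothalamus to some degree. Lhx9, a LIM factor of midbrain and diencephalic neurons, had 26.6, 21.8, 24.4 and 25.4 CPM in periaqueductal gray, 2.04-fold its hypothalamic mean of 12.1 CPM. Barhl2 averaged 5.88 ± 0.977 CPM in periaqueductal gray, 2.8-fold hypothalamus. Its relative Barhl1, outside the list, averaged 7.8 ± 0.824 CPM, 5.25-fold hypothalamus. The paired genes Mab21l2 and Mab21l1, regulators of eye and brain development, averaged 12.9 ± 1.32 and 14.7 ± 1.89 CPM in periaqueductal gray, 8.34-fold and 7.37-fold their hypothalamic means. Exons of Mab21l2 and Mab21l1 overlap those of genes on the opposite strand (Lrba and Nbea), and since it is not given whether counting used strand, reads of such pairs cannot be told apart. The same holds for Tfap2d, and for Otx2, a forebrain and midbrain factor with 8.43 ± 1.57 CPM in periaqueductal gray and 4.52 CPM in substantia nigra. In GENCODE M21 it also holds for Gata3, Ddn, Myoc, Slc18a2, Pitx3, Slc32a1, Glra1, Gabra4, Grin2b, Grin2d, Penk, Pmch, Oprm1, Ppp1r1b, Pdgfra, Cx3cr1, Nova2, Celf3 and Celf2.

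Serpina3g was also among the 14 genes that led the highest calls. It encodes a serine protease inhibitor of a family with near-identical copies, among which reads may be split, so its level is uncertain. It averaged 8.42 ± 1.36 CPM in periaqueductal gray (SD, n = 4), 9.72-fold hypothalamus.

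Some members of the same list were lower in periaqueductal gray than in substantia nigra. En1, which maintains dopamine neurons and patterns the midbrain-hindbrain border, had 8.04, 8.01, 8.23 and 5.17 CPM in periaqueductal gray, against a mean of 30.9 CPM in substantia nigra, 0.786 CPM in hypothalamus and 0.012 CPM in caudate putamen. It was lower than in substantia nigra, at -2.08 ± 0.14 on the log2 scale (SE; edgeR, adjusted p = 3.36e-11) and higher than in both forebrain regions. En2, Lmx1b and Foxa2 had the same order of substantia nigra over periaqueductal gray, at 5.96, 2.22 and 1.82 CPM in periaqueductal gray and 9.2, 7.1 and 3.1 CPM in substantia nigra. Gata2, a selector of midbrain GABA neurons, averaged 9.22 ± 1.3 CPM in periaqueductal gray and 6.21 CPM in substantia nigra, with no overlap between the groups, but did not reach the call for highest (adjusted p = 0.821).

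Telencephalic factors were mostly lower. Of 24 listed, 22 were tested, and 17 of these were lower and 4 (Lhx2, Emx2, Neurod2 and Neurod6) higher than the mean. Emx2 averaged 3.61 CPM in periaqueductal gray, against 0.999 CPM in hypothalamus, 4.31 CPM in caudate putamen and 1.46 CPM in substantia nigra. All 20 that differed from caudate putamen were lower in periaqueductal gray. Dlx1, a factor of forebrain inhibitory neurons, averaged 0.0157 CPM in periaqueductal gray, which was 1 tag in 4 libraries, against 23.6 CPM in hypothalamus, 16.6 CPM in caudate putamen and 0.416 CPM in substantia nigra (edgeR, adjusted p = 0.00127 for being lowest). Its relative Dlx5 was at 0 tags in all 4. Six3, an anterior neural plate factor, was present at 3.68 to 5.03 CPM in periaqueductal gray but lowest there, at means of 18.7 CPM in hypothalamus, 39.8 CPM in caudate putamen and 25.7 CPM in substantia nigra (-2.64 ± 0.09 log2, SE). Six3 and Six3os1 overlap on opposite strands, as Dlx1 and Dlx1as do, and each pair's reads cannot be told apart. Bcl11b, a factor of striatal projection neurons, averaged 10 ± 1.39 CPM in periaqueductal gray, near hypothalamus (10.8 CPM) and substantia nigra (10.7 CPM) and far below caudate putamen (272 CPM), so its call as lower rests on caudate putamen.

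Of 14 hypothalamic factors 10 were tested, and 9 of the 10 were lower than in hypothalamus. Nkx2-1 averaged 0.0874 CPM in periaqueductal gray and 7.29 CPM in hypothalamus, Nr5a1 was at 0 tags in periaqueductal gray and 5.59 CPM in hypothalamus, and Sim1 averaged 1.15 CPM in periaqueductal gray and 11.9 CPM in hypothalamus. Nr5a1 marks the ventromedial hypothalamus and Sim1 the paraventricular nucleus. Sim1 was also 1.01 CPM or more in every periaqueductal gray library, above its means of 0.0337 CPM in caudate putamen and 0.105 CPM in substantia nigra. Sox14, a factor of midbrain and thalamic GABA neurons that stands in this list and in the midbrain list, was the 1 member higher than in hypothalamus. The summed level of 20 Hox genes, markers of hindbrain and spinal cord, was 0.0915 to 0.378 CPM in periaqueductal gray libraries and 1.24 to 1.64 CPM in substantia nigra libraries.

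**Figure D2:**
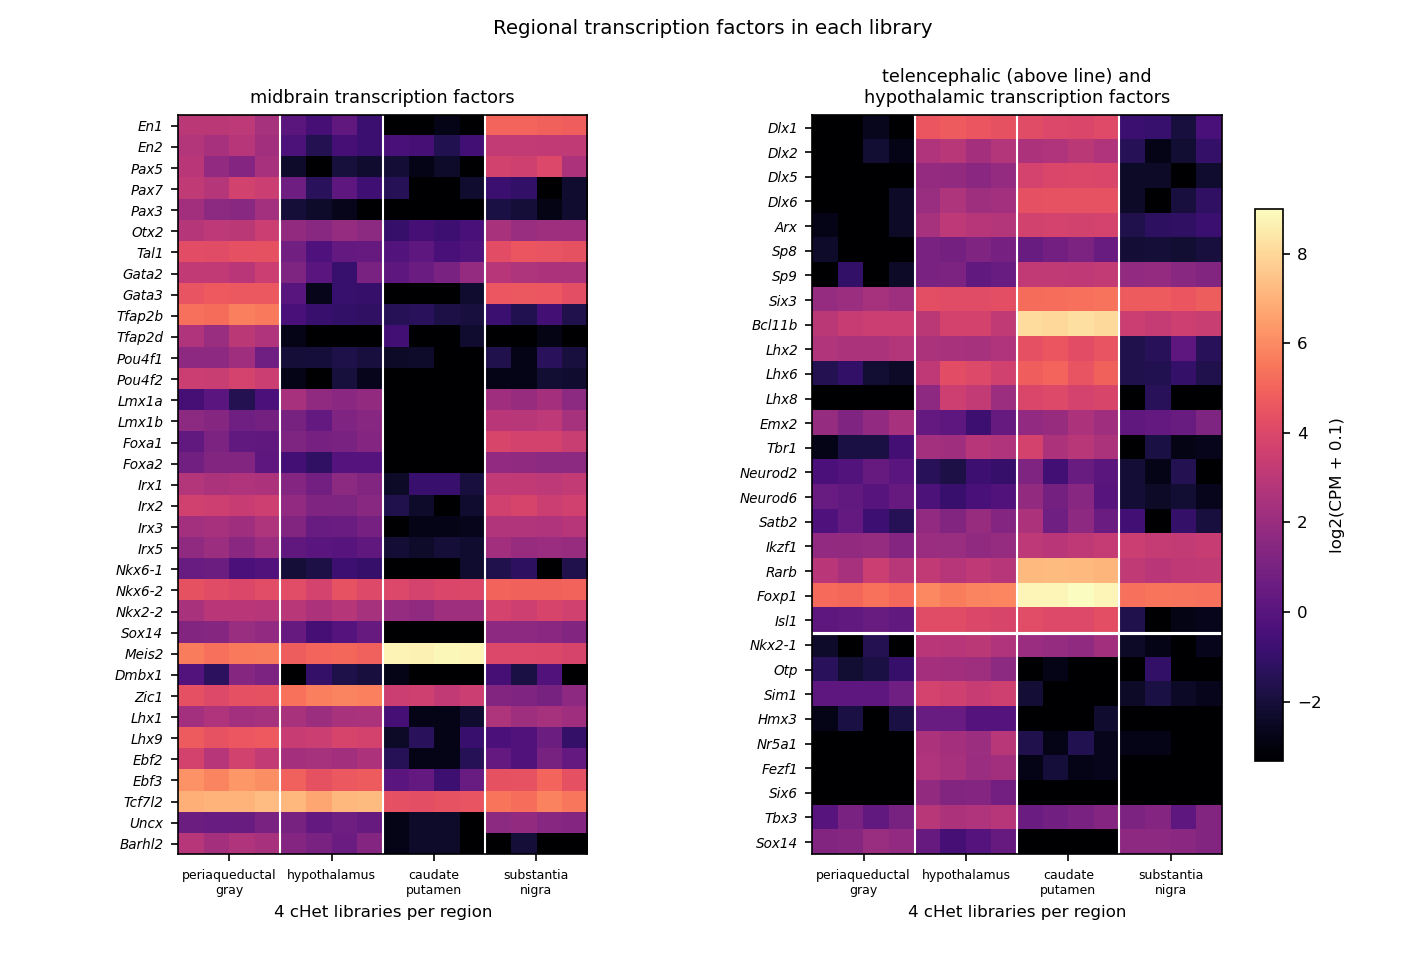
Levels, as log2(CPM + 0.1), of tested midbrain (left), telencephalic and hypothalamic (right, above and below the white line) transcription factors in each of 16 cHet libraries, grouped by region with periaqueductal gray first. The 4 periaqueductal gray columns share bright Tfap2b, Ebf3, Tcf7l2, Gata3 and Lhx9 cells, and are dark for Dlx1, Dlx5 and Nr5a1.

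Periaqueductal gray and hypothalamus shared a glutamate transporter that the other 2 regions nearly lacked. Slc17a6 (VGLUT2), which loads glutamate into vesicles of subcortical neurons, had 424, 404, 486 and 448 CPM in periaqueductal gray, against means of 383 CPM in hypothalamus, 11.5 CPM in caudate putamen and 13.1 CPM in substantia nigra. It did not differ from hypothalamus beyond the spread (0.20 ± 0.15 log2, SE; edgeR, adjusted p = 0.334) and was 5.06 ± 0.18 log2 units above substantia nigra. The cortical transporter Slc17a7 (VGLUT1) averaged 4.96 ± 0.294 CPM in periaqueductal gray, against 48.7 CPM in hypothalamus, 81.8 CPM in caudate putamen and 1.66 CPM in substantia nigra. Slc17a8 (VGLUT3), present in many serotonin neurons, had 22.3, 19.2, 8.8 and 13.2 CPM in periaqueductal gray and means of 8.49 CPM in hypothalamus, 22.6 CPM in caudate putamen and 0.356 CPM in substantia nigra.

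Gad1 and Slc32a1 were lower in periaqueductal gray than in caudate putamen and substantia nigra. Gad1, which makes GABA, had 433, 467, 496 and 522 CPM in periaqueductal gray, against means of 473 CPM in hypothalamus, 836 CPM in caudate putamen and 924 CPM in substantia nigra. Its difference from hypothalamus was 0.02 ± 0.06 log2 (SE), and that from substantia nigra was -0.95 ± 0.06. Slc32a1, the vesicular transporter of GABA and glycine, followed the same order at 91.6 ± 5.64 CPM in periaqueductal gray and 157 CPM in substantia nigra. The second GABA enzyme, Gad2, was different: at 315 ± 22.2 CPM it was above substantia nigra (213 CPM) and below caudate putamen (490 CPM), and its difference from the mean did not pass the test (edgeR, adjusted p = 0.213). Slc6a5 (GlyT2), the marker of glycine-releasing neurons, had 15.5, 11.1, 13.6 and 13.2 CPM in periaqueductal gray, was at 0 tags in caudate putamen, and was 17-fold its level in substantia nigra (edgeR, adjusted p = 1.32e-09 for being highest). Over the 14 genes of transmitter synthesis and transport, 7 were higher and 5 lower than the mean and 1, Slc6a5, was highest, at a median of 0.13 log2.

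Receptors for the same transmitters differed by subunit. Of 23 GABA and glycine receptor genes 22 were tested, and 11 were higher and 4 lower than the mean. All 4 glycine receptor subunit genes of the list were higher than the mean. Glra2, at 35.4 to 37.3 CPM in periaqueductal gray libraries, was however below hypothalamus (49.7 to 58 CPM). Glra1, the main adult subunit, had 54.7, 57.4, 71 and 55.5 CPM in periaqueductal gray, against means of 21.2 CPM in hypothalamus, 0.788 CPM in caudate putamen and 32.3 CPM in substantia nigra. It was 1.85-fold substantia nigra (edgeR, adjusted p = 6.93e-06 for being highest), without overlap. Glra3 averaged 26.5 ± 4.24 CPM in periaqueductal gray, near hypothalamus (22.4 CPM) and above caudate putamen (2.87 CPM) and substantia nigra (9.18 CPM). Among GABA receptor subunits Gabrd and Gabra4 were lower than the mean and Gabra5 and Gabrq higher. Gabra5, at 27.6 to 38 CPM in periaqueductal gray libraries, was below hypothalamus (39.2 to 45.3 CPM) and caudate putamen (39.9 to 44.1 CPM). It was above substantia nigra alone (6.7 to 8.86 CPM). Gabrq, at 24.2 to 28.2 CPM, was below hypothalamus (78.6 to 84.1 CPM). It was above caudate putamen (2.65 to 3.82 CPM) and substantia nigra (2.08 to 3 CPM). Gabrd averaged 0.614 ± 0.234 CPM in periaqueductal gray, against 24.7 CPM in hypothalamus, 119 CPM in caudate putamen and 1.11 CPM in substantia nigra, and Gabra4 averaged 19.4 ± 1.86 CPM, against 94.6, 217 and 28.8 CPM (edgeR, adjusted p = 0.00364 for being lowest).

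Of 25 tested glutamate receptor genes 12 were higher and 9 lower than the mean. Grin2d, an NMDA receptor subunit common in brainstem, averaged 64.7 ± 2.1 CPM in periaqueductal gray, above 54.3 CPM in hypothalamus, 17.3 CPM in caudate putamen and 37 CPM in substantia nigra without overlap, though it missed the call for highest (edgeR, adjusted p = 0.0685). Grin2b, a forebrain-rich subunit, averaged 44 ± 6.07 CPM in periaqueductal gray, against 74.3, 145 and 22.1 CPM in the same order of regions, and was lower than the mean, at -0.50 ± 0.09 log2. Against substantia nigra alone 22 of the 25 genes were higher.

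Neuropeptide genes moved in both directions. Of 39 listed peptides 35 were tested, with 13 higher and 11 lower than the mean, 4 highest, and 21 lower than in hypothalamus. Cartpt, the CART peptide precursor, had 101, 72.9, 70.3 and 67.3 CPM in periaqueductal gray, against means of 32.9 CPM in hypothalamus, 8.86 CPM in caudate putamen and 0.937 CPM in substantia nigra (2.36-fold hypothalamus; edgeR, adjusted p = 2.05e-07 for being highest). Vip, vasoactive intestinal peptide, had 9.86, 7.95, 11.1 and 9.19 CPM in periaqueductal gray, 2.08-fold its hypothalamic mean of 4.57 CPM. Ucn, urocortin, which in the mouse marks the centrally projecting Edinger-Westphal neurons near the aqueduct, had 2.06, 1.32, 2.33 and 2.52 CPM in periaqueductal gray and 8.64-fold less in hypothalamus. The groups did not overlap for any of these peptides.

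Precursors of opioid peptides and tachykinins differed in their order among regions. Penk, the enkephalin precursor, averaged 67.8 ± 6.36 CPM in periaqueductal gray, against 61.9 CPM in hypothalamus, 1027 CPM in caudate putamen and 25.4 CPM in substantia nigra, and its call as lower than the mean rests on caudate putamen. Tac1, the substance P precursor, averaged 52.4 ± 4.45 CPM in periaqueductal gray, against 44.6, 260 and 4.29 CPM, and its call as higher than the mean rests on substantia nigra. Pdyn, the dynorphin precursor, averaged 2.24 ± 0.795 CPM in periaqueductal gray, against 15.1, 64.2 and 0.607 CPM. Pnoc, the nociceptin precursor, was instead above caudate putamen, at 16 CPM in periaqueductal gray against 20.7, 2.21 and 7.22 CPM. Pmch, the melanin-concentrating hormone precursor, averaged 0.249 ± 0.127 CPM in periaqueductal gray and 279 CPM in hypothalamus, and Avp was at 0 tags in periaqueductal gray and 40.4 CPM in hypothalamus. All 11 tested members of a list of 12 genes of hypothalamic peptide neurons were lower than in hypothalamus, and 6 were lower and 1 (Trh) higher than the mean (2 higher without periaqueductal gray replicate 3). Trh, the thyrotropin-releasing hormone precursor, averaged 10.6 CPM in periaqueductal gray, against 50 CPM in hypothalamus, 4.29 CPM in caudate putamen and 1.64 CPM in substantia nigra. Adcyap1 (PACAP), which is not in that list, averaged 28.1 ± 3.65 CPM in periaqueductal gray and 49.7 CPM in hypothalamus. Its means were 0.825 CPM in caudate putamen and 2.22 CPM in substantia nigra.

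Peptide, opioid and cannabinoid receptors were more often higher than lower. Of 38 listed genes 37 were tested, and 23 were higher and 4 lower than the mean, at a median of 0.62 log2, and 29 were higher than in substantia nigra. Against hypothalamus, 6 were higher and 16 lower. Hcrtr1, the orexin receptor abundant in brainstem monoamine nuclei, had 24, 24.8, 23 and 21 CPM in periaqueductal gray, against means of 10.2 CPM in hypothalamus, 1.86 CPM in caudate putamen and 13 CPM in substantia nigra (edgeR, adjusted p = 0.000304 for being highest). Oprl1, the nociceptin receptor, averaged 80.8 ± 5.53 CPM in periaqueductal gray and 77.8 CPM in hypothalamus, above 24 CPM in caudate putamen and 41 CPM in substantia nigra. Oprm1, the mu opioid receptor through which morphine acts, had 6.08, 4.73, 7.1 and 7.46 CPM in periaqueductal gray, against means of 9.62 CPM in hypothalamus, 3.23 CPM in caudate putamen and 1.48 CPM in substantia nigra. It was lower than in hypothalamus (-0.59 ± 0.21 log2, SE; edgeR, adjusted p = 0.0369) and higher than in the other 2 regions.

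The kappa opioid receptor Oprk1 averaged 10.7 ± 0.801 CPM in periaqueductal gray, below all 12 other libraries (means of 17, 28 and 14.1 CPM in hypothalamus, caudate putamen and substantia nigra), but missed the call for lowest (edgeR, adjusted p = 0.125). The delta receptor Oprd1, at 5.18 ± 1.4 CPM, did not pass the test against the mean (edgeR, adjusted p = 0.199). Per length, Oprl1 stood at 28.9 RPKM in periaqueductal gray, above Oprk1 (2.45 RPKM), Oprm1 (1.9 RPKM) and Oprd1 (1.29 RPKM). The cannabinoid receptor Cnr1 averaged 100 ± 9.15 CPM in periaqueductal gray, against 89.2 CPM in hypothalamus, 293 CPM in caudate putamen and 36.2 CPM in substantia nigra, and did not pass the test against the mean. Esr1, the estrogen receptor alpha, averaged 6.24 ± 0.8 CPM in periaqueductal gray and 11.4 CPM in hypothalamus, against 0.968 CPM in caudate putamen and 1.07 CPM in substantia nigra.

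Of 40 receptors for monoamines and acetylcholine 37 were tested, with 15 higher and 10 lower than the mean, at a median of 0.17 log2. Over all tested genes 24.9% were higher and 23.1% lower. The dopamine receptors Drd1a (now Drd1) and Drd2 averaged 1.98 and 17.6 CPM in periaqueductal gray, against 206 and 167 CPM in caudate putamen. Chrna6, a nicotinic subunit of dopamine neurons, averaged 4.67 ± 0.686 CPM in periaqueductal gray and 157 CPM in substantia nigra. Adra2b, an adrenergic receptor, averaged 0.0386 CPM in periaqueductal gray, against 2.67 CPM in hypothalamus, 3.56 CPM in caudate putamen and 0.094 CPM in substantia nigra.

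Cholinergic genes were detected at modest levels. Of 11 markers of cholinergic and cranial motor neurons 7 were tested, and 5 were higher and 1 (Isl1) lower than the mean. Isl1 missed the threshold when substantia nigra replicate 1 was left out, at -0.93 log2 (edgeR, adjusted p = 0.111). Chat, which makes acetylcholine, had 12.8, 8.39, 14.4 and 7.04 CPM in periaqueductal gray, against means of 6.81 CPM in hypothalamus, 37.2 CPM in caudate putamen and 0.688 CPM in substantia nigra. Its vesicular transporter Slc18a3 averaged 6.07 ± 1.34 CPM in periaqueductal gray and 8.88 CPM in caudate putamen. Both were thus below caudate putamen, which holds cholinergic interneurons, and above the other 2 regions. Prph, an intermediate filament of motor and raphe neurons, averaged 13.7 ± 2.58 CPM in periaqueductal gray, against 10.5, 0.591 and 2.19 CPM in hypothalamus, caudate putamen and substantia nigra.

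Markers of noradrenaline neurons varied between the periaqueductal gray libraries. Dbh, the noradrenaline enzyme of the locus coeruleus, had 1.32, 3.59, 0 and 0.274 CPM and Slc6a2, the noradrenaline transporter, had 1.42, 2.84, 0.126 and 0.0457 CPM. Neither passed the filter on low counts, so neither was tested, and of the 5 noradrenergic markers 3 were tested with 1 higher (Slc18a2) and 1 lower (Th). Both genes were highest in replicate 2 and near 0 in replicates 3 and 4. Of 7 cerebellar markers 6 were tested, with 1 higher (Eomes; none without periaqueductal gray replicate 1 or 4, and 2 without any 1 of 4 libraries of the other regions) and 1 lower (Car8), and the granule cell receptor subunit Gabra6 had 1 tag in the 4 libraries. Eomes had 0.588, 0, 0.126 and 0.64 CPM in periaqueductal gray and 0.443 to 1.15 CPM in hypothalamus libraries. It was at 0 to 0.294 CPM in caudate putamen and at 0 in every substantia nigra library, and its call rests on these low levels. The part of neighbouring tissue in other results was not tested.

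Dopamine neuron genes separated periaqueductal gray from the other midbrain region. All 15 listed genes were tested, and all 15 were lower than in substantia nigra, while 7 were higher and 5 lower than in hypothalamus. Th, the rate-limiting enzyme of dopamine synthesis, had 29.9, 38, 23.8 and 20.3 CPM in periaqueductal gray, against means of 69.2 CPM in hypothalamus, 18.2 CPM in caudate putamen and 1004 CPM in substantia nigra. It was lower than in substantia nigra, at -5.17 ± 0.14 log2 (SE; edgeR, adjusted p = 8.17e-18). The dopamine transporter Slc6a3 averaged 10.6 ± 4.39 CPM in periaqueductal gray (SD, n = 4; lowest 4.62, highest 14.9 CPM) and had a mean of 1799 CPM in substantia nigra, a difference of -7.45 ± 0.25 log2. Periaqueductal gray was still above caudate putamen for both genes. Pitx3, a factor of substantia nigra and ventral tegmental dopamine neurons, averaged 0.175 ± 0.089 CPM in periaqueductal gray and 5.1 CPM in substantia nigra.

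The 5 genes furthest above substantia nigra by the rule for named genes were Slc6a4, Tfap2d, Barhl2, Tmem212 and Ccdc153. The last 2, genes of motile cilia, averaged 5.27 ± 1.83 and 12.1 ± 3.92 CPM in periaqueductal gray, close to hypothalamus (4.58 and 12.7 CPM), while Tmem212 was at 0 tags and Ccdc153 at 0.0569 CPM in substantia nigra. Slc6a3, Anxa1, Th and Chrna6 were among the 5 furthest below it.

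Genes of fast-firing neurons were higher as a group. All 20 listed genes, channels, synaptic release proteins and neurofilaments known from neurons with sustained high firing rates, were tested. Of these 19 were higher and none lower than the mean, at a median of 0.76 log2, and 10 were highest. Against hypothalamus 19 were higher, against caudate putamen 18, and against substantia nigra 14, with 3 lower. Vamp1, a vesicle fusion protein of brainstem synapses, had 608, 618, 800 and 629 CPM in periaqueductal gray, against means of 199 CPM in hypothalamus, 61.8 CPM in caudate putamen and 329 CPM in substantia nigra (2.02-fold substantia nigra; edgeR, adjusted p = 3.09e-07 for being highest). Syt2, the fast calcium sensor, had 166, 168, 229 and 184 CPM in periaqueductal gray, 2.12-fold its substantia nigra mean of 88 CPM. All 4 periaqueductal gray libraries were above the 12 others for both, and replicate 3 was the highest.

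Kcnc1, a potassium channel that allows short action potentials, had 215, 208, 266 and 222 CPM in periaqueductal gray, against means of 154 CPM in hypothalamus, 95.3 CPM in caudate putamen and 165 CPM in substantia nigra (edgeR, adjusted p = 8.8e-05 for being highest). Scn1a, a sodium channel of inhibitory and fast-firing neurons, averaged 402 ± 53.2 CPM in periaqueductal gray, 1.84-fold substantia nigra. For Kcna1 (290 ± 57.9 CPM) and the heavy neurofilament Nefh (227 ± 17.1 CPM) the periaqueductal gray libraries were also above all others, but the call for highest was lost in 10 and 9 of the 16 fits that left out 1 library (largest adjusted p = 0.242 and 0.114). Pvalb, a calcium buffer of such neurons, went to another order, with 38.9, 65.1, 62.2 and 53.9 CPM in periaqueductal gray and 172 CPM in substantia nigra. Its difference from the mean (0.33 ± 0.12 log2; edgeR, adjusted p = 0.0298) missed the threshold without any 1 of periaqueductal gray replicates 2, 3 or 4 or hypothalamus replicate 2 (adjusted p = 0.158, 0.119, 0.0562 and 0.0512).

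Nova1, the gene that the series deletes in its cKO mice, was itself highest in periaqueductal gray. It had 180, 192, 216 and 182 CPM there, against means of 115 CPM in hypothalamus, 53.6 CPM in caudate putamen and 87.1 CPM in substantia nigra, all in cHet. The groups did not overlap, and the difference from the mean was 1.24 ± 0.05 log2 (SE; edgeR, adjusted p = 4.26e-08 for being highest). Its paralog Nova2, a splicing factor that is strong in cortex, had the other order, at 63.6 ± 4.94 CPM in periaqueductal gray against 98.2, 127 and 73.7 CPM (-0.62 ± 0.05 log2). In the cKO libraries Nova1 averaged 158 ± 33.5 CPM in periaqueductal gray, against 75.4, 14.7 and 40.7 CPM in the 3 other regions, counted over the whole gene. The main comparison used cHet alone, so region and an effect of this genotype on Nova1 cannot be told apart. Of 23 neuronal splicing regulators, all tested, 8 were higher and 8 lower than the mean (24.9% and 23.1% of all tested genes). Nova1 was the 1 called highest. Celf3 and Celf2, regulators of splicing and mRNA stability, were lower than the mean, at -0.96 ± 0.06 and -0.82 ± 0.09 log2, and lower than in hypothalamus and caudate putamen. In substantia nigra they averaged 35.6 and 40.7 CPM against 39.4 and 55.6 CPM in periaqueductal gray. Rbfox1 averaged 240 ± 17.3 CPM in periaqueductal gray, above hypothalamus (180 CPM) and substantia nigra (30.1 CPM) and below caudate putamen (486 CPM).

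**Figure D3:**
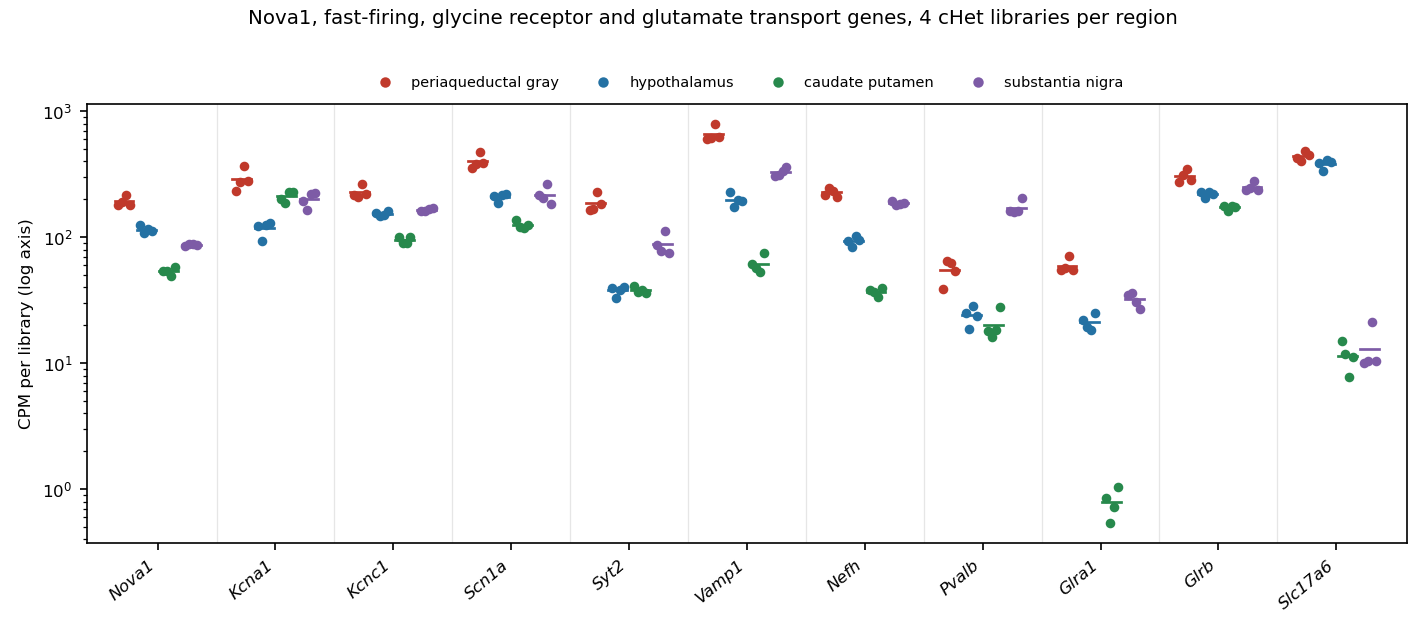
Level of Nova1, 7 genes of fast-firing neurons, the glycine receptor genes Glra1 and Glrb and the glutamate transporter gene Slc17a6 in each of 16 cHet libraries (points; CPM on a log axis), with a bar at each region's mean. Nova1, Vamp1, Syt2, Kcnc1, Scn1a and Glra1 have all 4 periaqueductal gray points above the others, Pvalb is highest in substantia nigra, and Slc17a6 is shared with hypothalamus.

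Striatal genes were the clearest neuronal group that was lower. All 20 genes of a list of striatal projection neurons that are in the tables were tested, and 19 were lower and 1 (Scn4b) higher than the mean, at a median of -1.57 log2. None was higher without periaqueductal gray replicate 3. All 20 were lower than in caudate putamen. Ppp1r1b (DARPP-32) averaged 16.7 ± 1.88 CPM in periaqueductal gray and 2052 CPM in caudate putamen, and Adora2a, the adenosine receptor of indirect pathway neurons, averaged 0.857 ± 0.525 CPM in periaqueductal gray and 265 CPM in caudate putamen. Against hypothalamus, 4 of the 20 were higher and 11 lower, and against substantia nigra 10 were higher and 6 lower. Ddn, a postsynaptic protein of forebrain neurons, led the genes called lowest, with 4.27, 3.15, 4.46 and 4.16 CPM in periaqueductal gray, against means of 25.9 CPM in hypothalamus, 598 CPM in caudate putamen and 18.6 CPM in substantia nigra (-4.03 ± 0.08 log2; edgeR, adjusted p = 1.88e-13 for being lowest). Lmo7, a cytoskeletal adaptor, and Neurl1b, a ubiquitin ligase, were lowest too, at 7.33 ± 0.932 and 3.38 ± 0.374 CPM in periaqueductal gray, with their nearest region means in substantia nigra (16.2 and 5.22 CPM). Of 10 cortical and hippocampal markers 9 were tested, with 4 higher and 3 lower than the mean. Among them Tbr1 averaged 0.244 ± 0.214 CPM in periaqueductal gray, against 5.68 CPM in hypothalamus and 8.02 CPM in caudate putamen.

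Myelin genes placed periaqueductal gray between the forebrain regions and substantia nigra. Of 23 oligodendrocyte genes, all tested, 22 were higher than in hypothalamus, 21 higher than in caudate putamen and all 23 lower than in substantia nigra. Against the mean of the regions 1 (Gjb1) was called higher and none lower, and Gjb1 missed the threshold without periaqueductal gray replicate 3 (edgeR, adjusted p = 0.2). Mbp had 8367, 9404, 9609 and 8704 CPM in periaqueductal gray, against means of 5454 CPM in hypothalamus, 7078 CPM in caudate putamen and 17391 CPM in substantia nigra. Relative to substantia nigra it was lower, at -0.95 ± 0.08 log2 (SE; edgeR, adjusted p = 3.37e-10). Per length, Mbp stood at 1373 RPKM in periaqueductal gray, close to Cpe, which processes peptide precursors, at 1365 RPKM. Of 5 oligodendrocyte precursor genes 2 were lower and none higher than the mean (1 higher without periaqueductal gray replicate 1 or substantia nigra replicate 3), among them Pdgfra at 112 ± 7.29 CPM in periaqueductal gray and 130, 113 and 159 CPM in hypothalamus, caudate putamen and substantia nigra.

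Astrocyte genes did not move together. Of 18, all tested, 4 were higher and 7 lower than the mean (24.9% and 23.1% of all tested genes). Against substantia nigra 17 were lower (28.2% of all tested genes). Gfap, the astrocyte filament protein, had 67.2, 52.3, 45.6 and 97.3 CPM in periaqueductal gray, against means of 234 CPM in hypothalamus, 179 CPM in caudate putamen and 1215 CPM in substantia nigra. It was lower than the mean, at -2.49 ± 0.13 log2 (SE; edgeR, adjusted p = 1.43e-06 for being lowest). The groups did not overlap, a condition of the rule that named Gfap. Slc1a3, the glutamate transporter GLAST, was also lowest, at 287 ± 16.5 CPM in periaqueductal gray against 605, 711 and 386 CPM. In contrast Slc6a11, the GABA transporter GAT3 of astrocytes, averaged 1299 ± 104 CPM in periaqueductal gray, above hypothalamus (1072 CPM) and caudate putamen (287 CPM) and below substantia nigra (1786 CPM). Aqp4, the water channel of astrocyte endfeet, averaged 229 ± 12.5 CPM in periaqueductal gray and 658 CPM in substantia nigra, and did not pass the test against the mean (edgeR, adjusted p = 0.136).

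All 15 microglial genes were tested and all 15 were lower than the mean, at a median of -0.91 log2. Each was lower than in caudate putamen and than in substantia nigra, while 1 of 15 was lower and none higher than in hypothalamus. Cx3cr1, the fractalkine receptor, averaged 31 ± 3.57 CPM in periaqueductal gray, against 29.7 CPM in hypothalamus, 58.2 CPM in caudate putamen and 92.6 CPM in substantia nigra. The complement gene C1qa averaged 21.2 ± 0.815 CPM, against 21.8, 42.4 and 82.4 CPM. The summed level of the list ran from 464 to 510 CPM in periaqueductal gray libraries and from 466 to 511 CPM in hypothalamus libraries, against 866 to 969 CPM in caudate putamen and 1563 to 1727 CPM in substantia nigra. Of 16 endothelial and mural genes 8 were lower and none higher than the mean, or 5 lower without periaqueductal gray replicate 3. Cldn5, a tight junction protein, averaged 7.82 ± 0.831 CPM in periaqueductal gray and 13.2 CPM in substantia nigra.

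Meningeal genes were lower too. Of 12, all tested, 10 were lower and none higher than the mean, 6 were lowest, and the median was -1.57 log2. In the cKO libraries 10 were lower than the mean and none was lowest. There the adjusted p for being lowest was 0.848 for Fmod, 0.693 for Ogn and 0.194 for Slc6a13 (edgeR). Outside this list, Ptgds (edgeR, adjusted p = 0.93), Slc13a4 and Myoc were not lowest in the cKO libraries either. The summed level was 109 to 147 CPM in periaqueductal gray libraries, against 181 to 310 CPM in hypothalamus, 165 to 200 CPM in caudate putamen and 379 to 560 CPM in substantia nigra. Col1a1, a collagen of fibroblasts, had 7.8, 11.2, 9.49 and 13.4 CPM in periaqueductal gray, against means of 23.6, 22.1 and 78 CPM. Ptgds, a prostaglandin synthase of meninges and oligodendrocytes, had 27.8, 29, 29.5 and 68.7 CPM in periaqueductal gray, against means of 412 CPM in hypothalamus, 250 CPM in caudate putamen and 488 CPM in substantia nigra (edgeR, adjusted p = 5.96e-05 for being lowest). Slc13a4, Myoc and Fmod, which are found in meningeal or perivascular cells, were lowest as well, at 0.764, 2.71 and 1.37 CPM in periaqueductal gray. Replicate 4 was the highest of the 4 for Ptgds, Gfap, Slc13a4 and Myoc. How much meninges each dissection kept was not tested.

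Genes of the ventricular lining were higher than in 2 of the regions. Of 8 ependymal genes, all tested, 6 were higher than the mean, 7 higher than in caudate putamen and 7 higher than in substantia nigra, but 1 higher and 2 lower than in hypothalamus, which borders the third ventricle. Foxj1, the master factor of motile cilia, averaged 14.1 ± 0.66 CPM in periaqueductal gray (SD, n = 4), against means of 9.12 CPM in hypothalamus, 6.56 CPM in caudate putamen and 9.03 CPM in substantia nigra (edgeR, adjusted p = 0.000896 for being highest). In the cKO libraries Foxj1 was not called highest (edgeR, adjusted p = 0.604). Unlike Tmem212 and Ccdc153, Foxj1 was well present in substantia nigra. The summed ependymal level was 34.3 to 60.9 CPM in periaqueductal gray libraries and 53.1 to 62.7 CPM in hypothalamus libraries. Of 10 genes of choroid plexus and subcommissural organ 9 were tested, with 4 higher (Folr1, Prlr, Sostdc1 and Sspo) and 2 lower (Ttr and Clic6) than the mean. Sspo, the spondin secreted by the subcommissural organ at the front end of the aqueduct, had 19.1, 30.5, 13.8 and 110 CPM in periaqueductal gray, against means of 6.68 CPM in hypothalamus, 9.4 CPM in caudate putamen and 17.1 CPM in substantia nigra. Replicate 4 stood far above the other 3, and the call for highest was missed (edgeR, adjusted p = 0.0831). Ttr, the marker of choroid plexus, was near 0, at 0.0628 to 1.01 CPM.

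**Figure D4:**
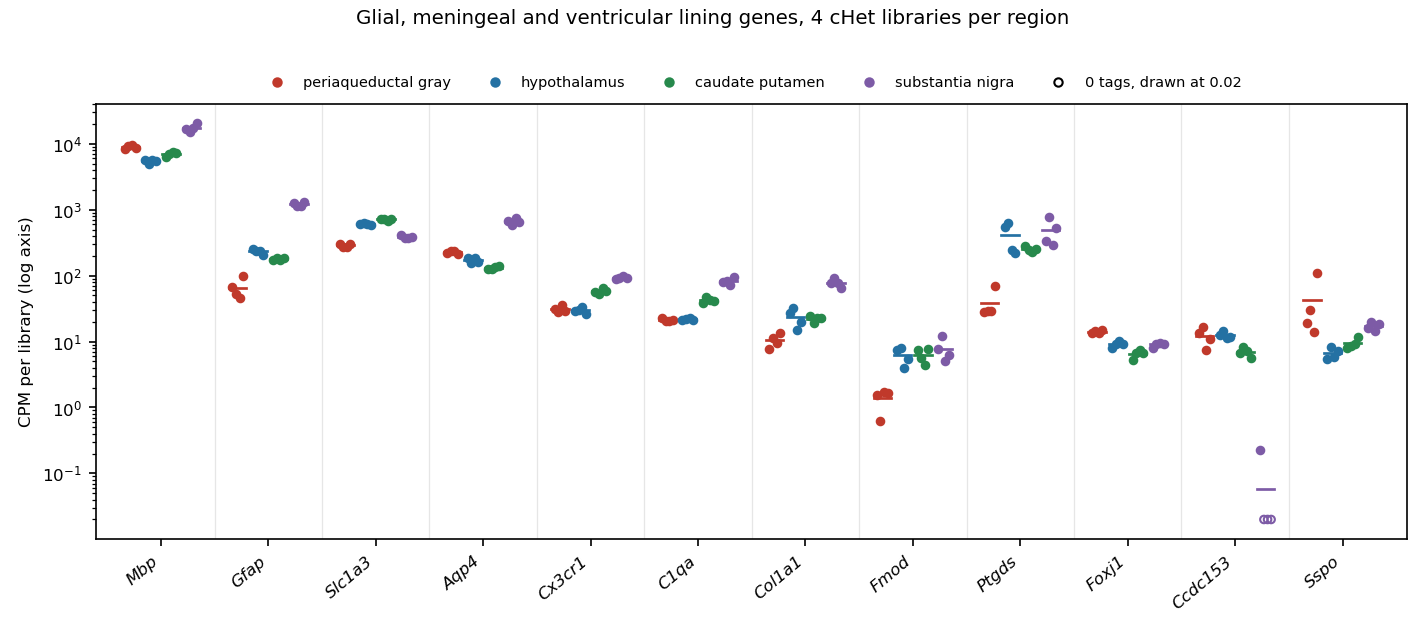
Level of genes of oligodendrocytes (Mbp), astrocytes (Gfap, Slc1a3, Aqp4), microglia (Cx3cr1, C1qa), meninges (Col1a1, Fmod, Ptgds) and the ventricular lining (Foxj1, Ccdc153, Sspo) in each of 16 cHet libraries (points; CPM on a log axis), with a bar at each region's mean and open points for 0 tags. Periaqueductal gray points lie below all others for Gfap, Slc1a3, Col1a1, Fmod and Ptgds, as for 2.08% of all tested genes. For Gfap, Fmod and Ptgds this was a condition of the rule that named them. The Sspo points of periaqueductal gray spread over 13.8 to 110 CPM.

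Of 11 immediate early genes, all tested, none was higher and 3 (Arc, Nr4a1 and Egr2) were lower than the mean. Over all tested genes 24.9% were higher and 23.1% lower. Against caudate putamen 9 of the 11 were lower (30.8% of all tested genes). Fos had 10.2, 9.9, 19.8 and 9.1 CPM in periaqueductal gray and Egr1 27.8, 24.8, 52 and 28.7 CPM, both highest in replicate 3, and neither passed the test against the mean (edgeR, adjusted p = 0.656 and 0.617). Of 5 erythroid genes 4 were tested and 1 (Hbb-b2, a globin with near-identical copies) was lower than the mean, a count that ran from 0 to 2 when 1 library was left out, 0 without periaqueductal gray replicate 1 or 4 and 2 without periaqueductal gray replicate 2 or 3 or substantia nigra replicate 4. The Y-linked gene Ddx3y had 126 to 136 CPM in periaqueductal gray libraries, and of 4 tested sex-linked genes 2 were higher and 1 lower than the mean. Kdm5d, 1 of the 2, missed the threshold without any 1 of periaqueductal gray replicates 2, 3 and 4, hypothalamus replicate 1, caudate putamen replicate 3 and substantia nigra replicate 3. The median coefficient of variation over genes of at least 10 CPM was 7.72% in periaqueductal gray, against 6.3% in hypothalamus, 6.05% in caudate putamen and 7.52% in substantia nigra.

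**Figure D5:**
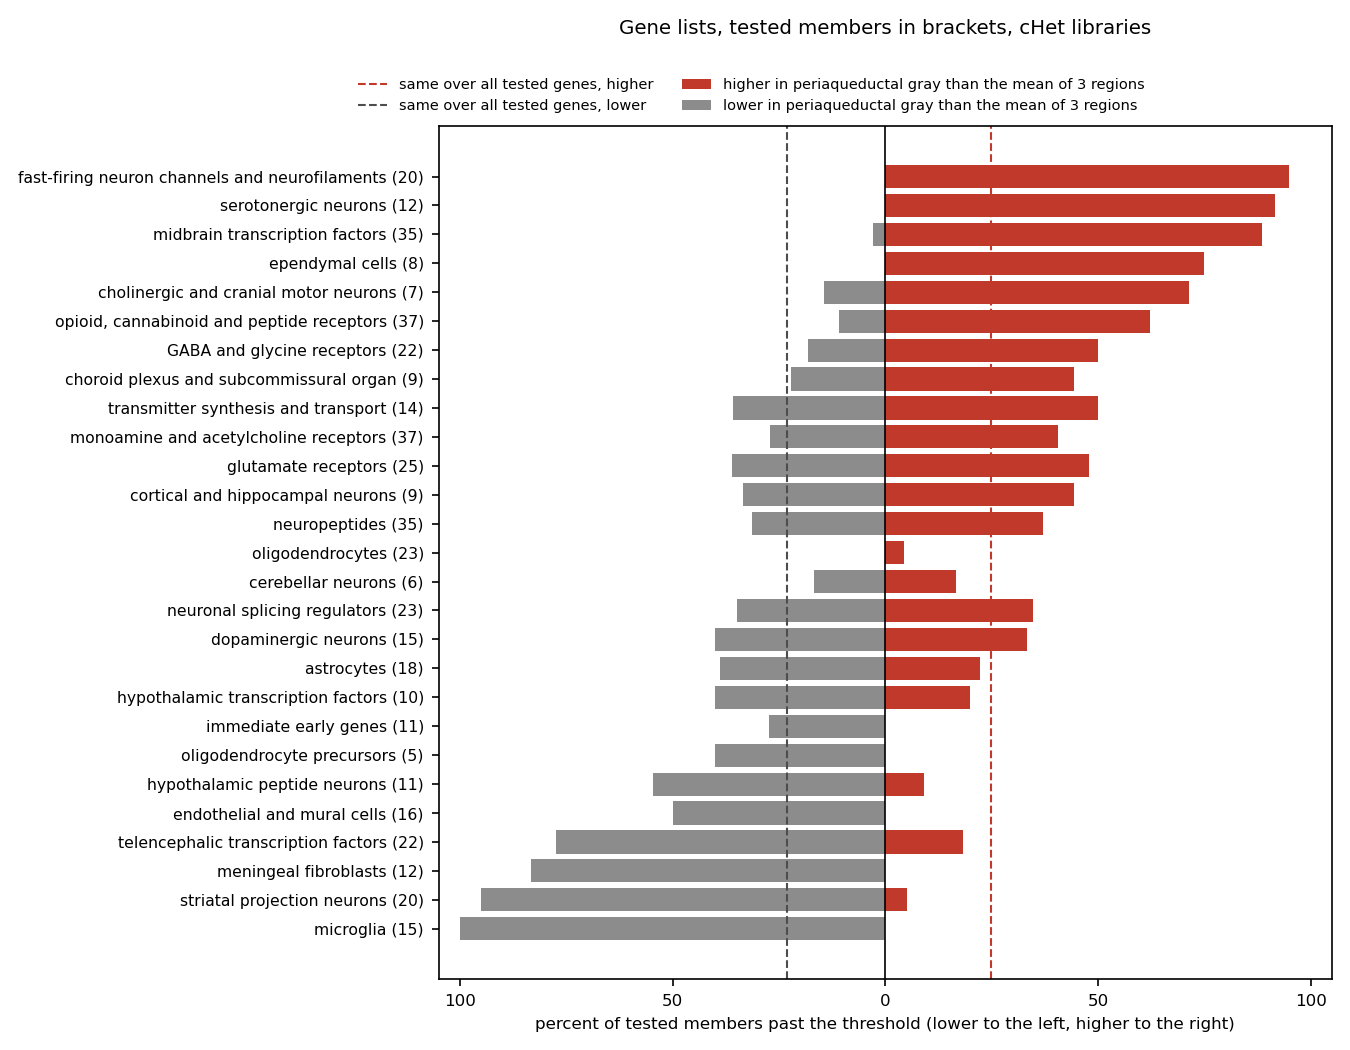
Percent of the tested members of each gene list that were higher (red, to the right) or lower (gray, to the left) in periaqueductal gray than the mean of hypothalamus, caudate putamen and substantia nigra, at edgeR adjusted p under 0.05, with the number tested in brackets. Dashed lines give the same over all 15660 tested genes (24.9% higher, 23.1% lower); lists of fewer than 5 tested genes and sex-linked genes are left out.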

How the data were processed

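RNA sequencing tables of 16 cHet libraries (4 regions, 4 libraries each) were used. A table holds, for every gene, its Entrez number, symbol and exon length beside a tag number and an RPKM. The deposited tag numbers are estimated counts: 4.56% to 12.7% of genes in a library are fractional, so they were rounded for the count tests. The deposited RPKM values (tags per kilobase of exon, scaled to depth) served only to compare levels between genes. The submitters' processing notes name the build mm10 and the tool edgeR. For the aligner, gene annotation, strand handling and reads with several matches, no statement is given in the sources used here.

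Tests used R 4.3.3 and edgeR 4.0.16 (filterByExpr with a minimum count of 10 and a minimum total of 15, TMM scaling, quasi-likelihood F tests, Benjamini-Hochberg adjustment over 15660 genes) in one fit of the 4 regions. The main contrast was periaqueductal gray minus the mean of the 3 other region coefficients. The SE is the absolute unshrunken log2 fold change divided by the square root of F. Libraries held 15.4 to 24.3 megatags. In simulated data of this design (15492 genes) the regions had equal means except for genes changed in periaqueductal gray alone. The changed genes were drawn from those with a mean of at least 1 CPM, so lower levels were not covered. The main contrast recovered 89.6% of genes changed 1.5-fold and 100% of those changed 2-fold or 4-fold. It called 10 of 15292 unchanged genes. The rule for highest or lowest recovered 70.1% at 1.5-fold, 94% at 2-fold and 98.5% at 4-fold, and called 0 unchanged genes. The real regions also differ from each other, which the simulation did not cover.

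Alternatives were RLE scaling, no filter, DESeq2, a replicate block, a fit with the cKO libraries added, and the cKO libraries alone. The last held 15 libraries, without a caudate putamen library whose title names periaqueductal gray. Further alternatives were a mean without each region, the other libraries as 1 group, no ribosomal RNA gene Rn45s, and each library left out.

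Genes were named by a rule: the 14 highest and 10 lowest genes with the largest difference from the mean at 5 CPM or more without overlap of libraries, 5 each way against substantia nigra, marked genes of each list, up to 4 of each list with the largest called difference, and Nova1 and Nova2. Other genes named were chosen after their values were seen. The members, the comparison and the lists were chosen with earlier results of these data known. Same-numbered libraries were not treated as pairs, since the labels do not say that they share an animal.
A few genes that the rule names are not reported here; they stay in the counts over lists and over all genes.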

Additional observations from a re-analysis of the deposited data

Results flagged for a closer look

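Among the 4 libraries of a region, single libraries stood apart from the other 3 (Dixon's 95% critical value for 4 samples, looked at for genes named in the text in regions with a mean of at least 1 CPM). This was so in 34 of 400 groups of a gene and a region, 8.5%, where chance gives about 1 in 20. Of the 34, 16 were in periaqueductal gray. Many genes were named for their level in that region, and the 400 groups are not split by region, so 16 of 34 gives no rate for it. Some genes were named for their wide spread there, which can raise both counts.

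In periaqueductal gray, replicate 3 was the high library for Pou4f2 (13.8 CPM, others up to 11), Glra1 (71 CPM, others up to 57.4), Vamp1 (800 CPM, others up to 629), Fos (19.8 CPM, others up to 10.2) and Egr1 (52 CPM, others up to 28.7). Replicate 4 was the high library for Ptgds (68.7 CPM, others up to 29.5), Myoc (5.81 CPM, others up to 2.06) and Sim1 (1.56 CPM, others up to 1.03), and the low one for En1 (5.17 CPM, others from 8.01). Replicate 2 was low for Fmod (0.631 CPM), Prph (9.9 CPM) and Pdgfra (101 CPM) and high for Six3os1 (2.33 CPM) and Sgk1 (161 CPM, others up to 82.8). Replicate 1 was high for Cartpt (101 CPM, others up to 72.9) and Lgals3bp (43.6 CPM, others up to 22.1). Sgk1 and Lgals3bp were named because of their wide spread.

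In substantia nigra, replicate 4 was low for Th (843 CPM, others from 1051), Pitx3 (2.53 CPM, others from 5.83) and Grin2d (32.9 CPM) and high for Pvalb (204 CPM). Replicate 3 was high for Slc17a6 (21.2 CPM, others up to 10.5), Slc17a7 (3.59 CPM, others up to 1.24) and Ddx3y (129 CPM). Replicate 1 was low for Oprd1 (1.73 CPM) and Nova1 (84.8 CPM) and high for Ttr (4.01 CPM, others up to 0.788), and replicate 2 was low for Fos (5.32 CPM).

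In hypothalamus, replicate 3 was low for Dlx5 (2.83 CPM) and high for Lmo7 (33.5 CPM), replicate 1 was low for Gad2 (324 CPM) and high for Slc6a11 (1124 CPM), and replicate 4 was low for Tac1 (37.4 CPM). In caudate putamen, replicate 1 was low for Tmem212 (1.8 CPM) and replicate 3 was high for Gabra4 (233 CPM).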

How the results depend on the processing

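The counts of genes higher and lower than the mean of the 3 regions were 3899 and 3617. They stayed within 1.5 times under RLE scaling, no filter on low counts, DESeq2 (version 1.42.0), a replicate block and a fit of 32 libraries. The same held for the cKO libraries and without the ribosomal RNA gene Rn45s, the 1 row left out there. Treated as 1 group, the 12 other libraries gave 470 higher and 393 lower. The count of genes lowest (135) was 214 with DESeq2 and 56 in the cKO libraries. Without 1 library each, the counts ran from 3541 to 4000 (higher than the mean), 3262 to 3782 (lower), 1847 to 2303 and 1946 to 2312 (higher and lower than hypothalamus), 4578 to 4924 and 4578 to 4907 (caudate putamen), 4521 to 5051 and 4125 to 4757 (substantia nigra), 265 to 363 (highest) and 97 to 147 (lowest).

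Among named genes, leaving out 1 library turned no direction, and 34 values fell short of the threshold and 3 newly passed it. Under the other alternatives 157 values fell short of it and 22 newly passed it, 97 of the 157 with the 12 other libraries as 1 group. In that fit the members called lower were 1 of 15 for microglia (15 in the main comparison) and 0 of 20 for striatal genes (19), and those called higher were 7 of 35 for midbrain factors (31), 4 of 12 for serotonergic genes (11) and 9 of 20 for genes of fast-firing neurons (19). In these alternatives 44 log2 differences turned sign. Without hypothalamus in the mean these were Nts 0.31, Sst 0.31, Pvalb -0.10, Oxt 0.54, Mbp -0.30, Mog -0.26 and Gjb1 -0.07. Without caudate putamen they were Chrna6 -2.82, Lmx1b -0.75, Slc18a2 -0.58, Ddc -0.53, Gad2 0.18, Grin2b 0.11, Penk 0.77, Nts 0.55, Sst 0.50, Npy 0.74, Oprd1 0.66, Ghsr -0.33, Pvalb -0.23, Agt -0.93, Slc6a11 -0.09, Slco1c1 0.04 and Arc 0.17. Without substantia nigra they were Slc6a3 1.74, Tac1 -1.04, Cnr1 -0.69, Tacr1 -0.08, Chat -0.59, Neurod6 -0.03, 6330527O06Rik (now Lamp5) -0.31, Aqp4 0.60, Rbfox1 -0.30 and Egr1 -1.27. With the 12 other libraries as 1 group they were En1 -0.52, Lmx1b -0.45, Sim1 -1.78, Slc18a2 -0.77, Ddc -0.76, Tac1 -0.97, Chat -0.49, Pvalb -0.39 and 6330527O06Rik -0.67, and in the cKO libraries Dcn 0.44. These fits differ from the main one by construction in the regions or libraries they weigh.

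Same-numbered libraries of different regions deviated from their group means with correlations of -0.0171 to 0.164 (median 0.0533, 24 pairs, 5 over 0.1). Differently numbered ones had correlations of -0.152 to 0.0925 (median -0.0208, 72 pairs, 0 over 0.1). Of 16 libraries 14 correlated best with their own number. The labels do not say that same numbers share an animal, so the main fit did not take them as pairs, and a shared origin was not tested. With a replicate block 4074 genes were higher and 3786 lower than the mean, 2238 and 2424 than hypothalamus, 4916 and 4969 than caudate putamen, 5163 and 4533 than substantia nigra, 356 were highest and 166 lowest. Genes at a few tags, such as Dlx1 in periaqueductal gray and Fev outside it, have levels set by counting error at this depth.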

Other observations

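The genes below were picked after their values were seen. Of 320 genes highest in periaqueductal gray 278 were in no list, and of 135 lowest 118. Among the first were the factors Lhx4 (1.53 CPM in periaqueductal gray, 0.023 CPM in substantia nigra and 0 tags in the other 2 regions), Tfap2a (2.76 CPM), Skor2 (1.39 CPM) and Pou4f3 (1.12 CPM), and Pappa2, a protease that cleaves growth factor binding proteins, at 7.03 CPM. Among the lowest were Lpl, lipoprotein lipase, at 2.07 CPM in periaqueductal gray against 7.06 CPM in hypothalamus, 104 CPM in caudate putamen and 4.87 CPM in substantia nigra, Mef2c, a forebrain neuron factor, at 12.7 CPM against 42.6, 188 and 20.1 CPM, and Pde2a, a phosphodiesterase, at 133 CPM against 197, 1357 and 439 CPM. Snap25, a core protein of synaptic vesicle fusion, ranked 9 by RPKM in periaqueductal gray (948 RPKM; clone names, ribosomal RNA and mitochondrial entries left out) and was also highest there, at 2013 ± 123 CPM against 1264, 1120 and 1280 CPM (SD, n = 4; edgeR, adjusted p = 3.1e-08).

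Among 10044 genes of at least 10 CPM in periaqueductal gray, the widest spread between its 4 libraries was that of Sspo (coefficient of variation 104%), and Ptgds (51.6%), Hif3a (44.8%), Ifi27l1 (42.9%) and C4b (42.8%) were among the next. Ifi27l1, C4b and Lgals3bp, which interferon can induce, were highest in replicate 1, at 24.3, 34 and 43.6 CPM, with the 3 other libraries at up to 15.1, 23 and 22.1 CPM. Sgk1, a kinase that glucocorticoids induce, was at 161 CPM in replicate 2 and 74.7 to 82.8 CPM in the others. Tph2 ranked 15 in this order, at 34.2%.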
